A study of Mus musculus with 48 samples.

Results

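PLNR9C mice carry the R9C form of phospholamban, and the genotype effect, PLNR9C against Wild type, was compared here between cardiomyocytes and cardiac non-myocytes of 16-week-old FVB hearts. The members are the 12 vehicle libraries of pooled heart cells, out of 48 libraries in the series, and they were chosen by their labelled cell fraction and treatment. They form 4 groups of 3 libraries: Wild type cardiomyocytes, PLNR9C cardiomyocytes, Wild type non-myocytes and PLNR9C non-myocytes, all from animals that had received vehicle. The quantity of interest is the log2 genotype effect in cardiomyocytes minus the log2 genotype effect in non-myocytes, called the difference below. A positive difference means that PLNR9C raised a gene more, or lowered it less, in cardiomyocytes. The rest of the series holds the same 4 groups from animals given JQ1, an inhibitor of BET bromodomain proteins, at a labelled 50 mg/kg, and left ventricle at 8 and 20 weeks. Every 16-week library, Wild type included, is labelled with the disease stage DCM (dilated cardiomyopathy). The labels do not say how the allele was made, how many animals went into a pool or how the cells were separated.

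Phospholamban is a small membrane protein of the sarcoplasmic reticulum that holds back the calcium pump SERCA until it is phosphorylated, and the R9C form causes inherited dilated cardiomyopathy. Phospholamban is a protein of cardiomyocytes, the cells that contract, while the non-myocytes of the heart are fibroblasts, endothelial cells, mural cells and leukocytes. Subtracting the 2 effects finds genes whose response is unequal in the 2 compartments, whether 1 or both of them respond.

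The 12 libraries held 10249780 to 12520846 reads in genes. Cardiomyocyte defining markers summed to 105791 to 161035 CPM (read counts scaled to a common library total, with TMM factors) in cardiomyocyte libraries and to 1812 to 4448 CPM in non-myocyte libraries, so the fractions matched their labels. None of the tested markers of either class was at 0 in the other fraction. The summed cardiomyocyte markers in a non-myocyte library came to 1.58 to 2.87% of their level in cardiomyocytes of the same genotype, with the highest value in Wild type replicate 2. Summed endothelial, fibroblast and macrophage markers in a cardiomyocyte library came to 9.32 to 11.7% of their non-myocyte level in Wild type and to 13.2 to 14.4% in PLNR9C. Without TMM factors these shares were 4.79 to 6.095% and 7.31 to 8.66%. By type, with TMM factors, the Wild type share was 4.43% for fibroblast, 5.42% for macrophage and 23.1% for endothelial markers. In PLNR9C these shares were 11.1%, 11.6% and 26.3%. A gene is called beyond carry-over in a fraction where its level was at least 2 times what the mean summed share, with TMM factors, would give. The summed share lies below that of endothelial markers alone, and 12 of 16 endothelial markers were beyond carry-over in both fractions. The rule thus does not screen out carried endothelial RNA. Mitochondrially encoded genes took 13.2 to 14.1% of reads in Wild type and 8.999 to 11.6% in PLNR9C cardiomyocytes, against 3.71 to 3.91% and 1.93 to 2.16% in non-myocytes. In pooled cells, fewer cells of a type and less RNA per cell cannot be told apart.

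PLNR9C changed the 2 fractions unequally for 1456 of 15567 genes tested (9.35%; edgeR's quasi-likelihood test, Benjamini-Hochberg adjusted p under 0.05). The difference was called higher for 949 genes (6.10%) and lower for 507 (3.26%), and it was at least 2-fold for 517 and 215 of them. PLNR9C altered 4844 genes in cardiomyocytes (31.1%; 2598 or 16.7% rose and 2246 or 14.4% fell) and 2580 in non-myocytes (16.6%; 1245 or 8.00% rose and 1335 or 8.58% fell). The median difference over all genes was 0.09 log2 units. These shares over all genes are the background for every list count below. With RLE size factors in place of TMM the difference was called for 752 genes higher and 646 lower, with DESeq2 for 991 and 863, and in a fit of all 24 fraction libraries for 647 and 671. The share of higher calls was thus 65.2% here and 53.8%, 53.5% and 49.1% there. With each cardiomyocyte library paired to the non-myocyte library of the same genotype and number, 2234 genes were called, 1431 of them shared. That fit is called pairing by pool below, although no label says that a number marks a shared pool. Leaving out Wild type cardiomyocyte replicate 1 or 3 left 902 or 877 calls, and leaving out Wild type non-myocyte replicate 2 left 879. The non-myocyte count was 1480 without PLNR9C replicate 1 and 1678 without Wild type replicate 2 of that fraction. Among genes beyond carry-over in both fractions it was 1388, of which 39.0% rose, against 48.3% of the 2580. Of the non-myocyte calls, 1388 rose and 1099 fell with TMM within each fraction, 1339 and 1136 with RLE size factors, 1480 and 1349 with DESeq2, and 1231 and 965 in the fit of 24 libraries, so which direction had more genes turned with the scaling.

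Most genes with a called difference were called in 1 fraction. Of the 949 higher genes, 587 rose in cardiomyocytes with no call in non-myocytes (median log2 effects 1.02 and -0.04). Another 142 rose in both fractions with the larger rise in cardiomyocytes, and for 104 of these the cardiomyocyte level was not beyond carry-over. In 121 genes the non-myocyte level fell with no call in cardiomyocytes, and 72 rose in cardiomyocytes and fell in non-myocytes. Of the 507 lower genes, 351 fell in cardiomyocytes with no call in non-myocytes (median log2 effects -0.73 and 0.09), 77 rose in non-myocytes with no call in cardiomyocytes, and 41 fell in cardiomyocytes and rose in non-myocytes. A missing call does not show that a gene was steady in that fraction. Wild type levels were higher in cardiomyocytes for 445 of the 507 lower genes (87.8%) and for 247 of the 949 higher genes (26.0%), against 47.2% of all genes tested. Levels were beyond carry-over in both fractions for 1245 of the 1456 genes.

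**Figure D1:**
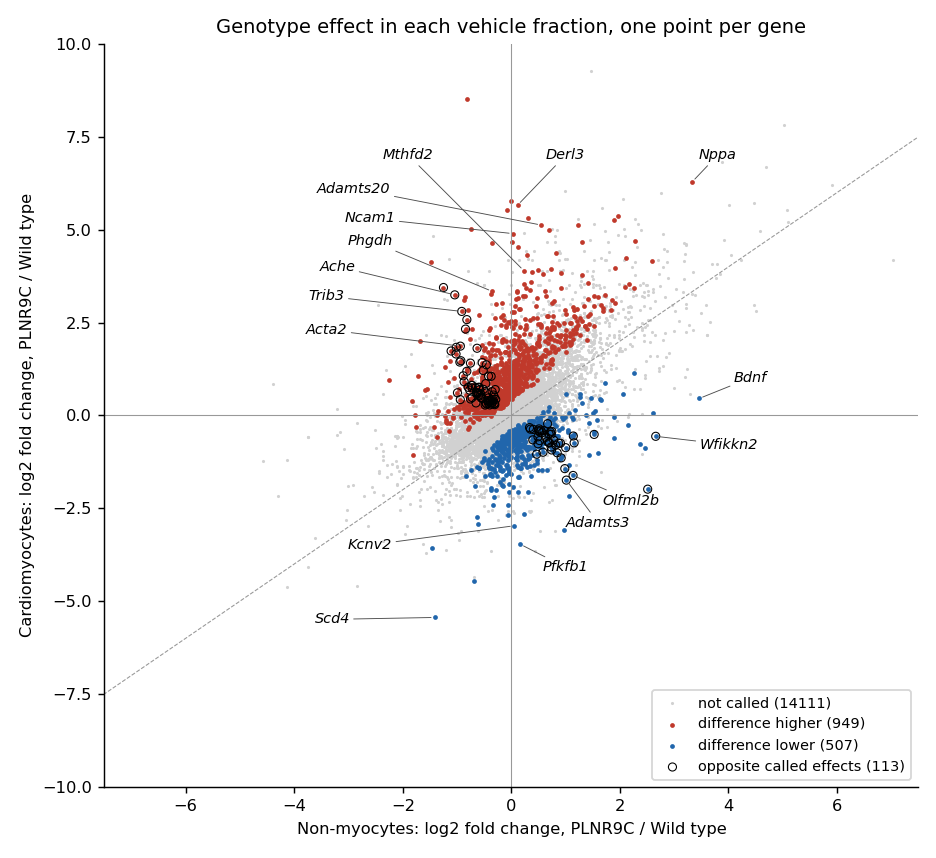
Log2 genotype effect (PLNR9C over Wild type) in vehicle non-myocytes on the x axis and in vehicle cardiomyocytes on the y axis, 1 point per gene tested; red and blue points are the 949 and 507 genes whose difference was called higher and lower, and circles mark the 113 with opposite called effects. The dashed line marks equal effects: Derl3, Ncam1 and Mthfd2 lie high above it with non-myocyte effects near 0, and Wfikkn2 and Bdnf lie below it on the side of higher non-myocyte levels.

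Genes of amino acid stress were called higher on the cardiomyocyte side. The integrated stress response slows protein synthesis and raises the transcription factor ATF4, which turns on genes for amino acid synthesis and import and for tRNA charging. Of 23 tested genes of this response, 10 had a difference called higher and 0 lower, against 6.10% and 3.26% of all genes, with a median difference of 0.93. In cardiomyocytes 14 rose and 1 fell, while in non-myocytes 2 rose and 3 fell, with median effects of 0.81 and -0.18. Promoters are shown for the 4 called genes with the smallest p that hold TGATGNAA, the core shared by ATF4 composite elements, within 250 bases before to 50 after the start site. The sequences are from RefSeq, build GRCm38.p6, all on the minus strand, and start 150 bases before the start site, read 5′ to 3′. Capitals mark each match to TGATGNAA on either strand.
Trib3, chr2:152344039-152344210: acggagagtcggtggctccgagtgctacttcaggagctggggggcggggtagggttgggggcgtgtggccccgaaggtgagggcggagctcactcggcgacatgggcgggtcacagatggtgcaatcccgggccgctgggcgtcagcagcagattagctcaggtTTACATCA
Asns, chr6:7693210-7693359: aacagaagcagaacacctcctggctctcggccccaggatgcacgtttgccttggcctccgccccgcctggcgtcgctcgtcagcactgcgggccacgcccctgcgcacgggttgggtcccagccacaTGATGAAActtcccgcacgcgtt
Slc7a11, chr3:50443614-50443763: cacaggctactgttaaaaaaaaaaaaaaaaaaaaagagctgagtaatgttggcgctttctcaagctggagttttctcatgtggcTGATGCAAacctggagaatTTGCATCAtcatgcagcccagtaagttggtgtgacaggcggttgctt
Nupr1, chr7:126625471-126625620: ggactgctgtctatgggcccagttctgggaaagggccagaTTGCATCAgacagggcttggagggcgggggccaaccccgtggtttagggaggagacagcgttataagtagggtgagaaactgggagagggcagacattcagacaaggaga
The match lay 23 bases upstream of the Asns start site, 66 and 47 bases upstream of that of Slc7a11, 110 bases upstream of that of Nupr1 and 14 bases downstream of that of Trib3. The motif was found in 5 of 13 called genes of this list and of the serine, folate and proline list that had a window (38.5%), in 4 of 19 of their genes not called (21.1%), in 2.81% of all tested genes with a window and in 4.51% of all genes with a window. A match is a description of the letters only.

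Trib3 (chr2:152337425-152344060) encodes a pseudokinase that is a textbook ATF4 target. Its level was 2.85, 1.21 and 1.86 CPM in Wild type cardiomyocytes and 10.7, 14.2 and 16.5 CPM in PLNR9C cardiomyocytes. In non-myocytes it was 10.3, 11.3 and 13.7 CPM in Wild type and 4.82, 7.09 and 6.78 CPM in PLNR9C. The genotypes did not overlap in either fraction and the order was reversed between them. Its log2 effect was 2.80 ± 0.29 (SE, n = 3 libraries per group, as for all log2 values below) in cardiomyocytes and -0.92 ± 0.23 in non-myocytes, a difference of 3.72 ± 0.37 (adjusted p 0.000153). Asns (chr6:7675171-7693182), asparagine synthetase, stood at 2.48, 2.17 and 1.196 CPM in Wild type and 16.2, 12.5 and 17.1 CPM in PLNR9C cardiomyocytes. Non-myocytes held 6.91, 7.24 and 3.82 CPM in Wild type and 5.56, 6.88 and 6.42 CPM in PLNR9C. Only the cardiomyocyte groups were separate, and the difference was 2.88 ± 0.39 (adjusted p 0.000974). Atf5, a transcription factor translated under this stress, rose by 1.42 ± 0.17 in cardiomyocytes and fell in non-myocytes (-0.54 ± 0.16), a difference of 1.96 ± 0.23 (adjusted p 0.000505), although its 3 libraries per genotype overlapped in non-myocytes. Atf5 lies on the strand opposite Nup62, and no label or header says whether the counting used strand. The glycine transporter Slc6a9 differed by 2.14 ± 0.32 (adjusted p 0.00161) and the cystine transporter Slc7a11 by 2.17 ± 0.43 (adjusted p 0.00843). Nupr1, a small chromatin protein of the stress response, differed by 1.64 ± 0.38 (adjusted p 0.0184), but its cardiomyocyte level was not beyond carry-over.

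Among members whose difference did not pass were the factors at the centre of the response. Atf4 itself rose in cardiomyocytes (0.72 ± 0.22, adjusted p 0.0282) with a difference of 0.88 ± 0.31 (adjusted p 0.103). For Ddit3, which encodes the stress factor CHOP, the difference was 0.87 ± 0.26 (adjusted p 0.0553). The stress hormone gene Gdf15 went from 17.2, 44.2 and 5.31 CPM in Wild type to 371, 329 and 517 CPM in PLNR9C cardiomyocytes and from 6.08, 5.496 and 2.75 to 13.4, 9.38 and 18.6 CPM in non-myocytes. Both pairs of groups were separate, the Wild type cardiomyocyte libraries spread widely, and the difference of 2.65 ± 0.87 missed the threshold (adjusted p 0.09698). It passed when fractions were paired by pool (2.88, adjusted p 0.0174), with DESeq2 (2.60, adjusted p 0.0440), in voom (3.05, adjusted p 0.0458), in the fit of 24 libraries (2.58, adjusted p 0.0454) and without Wild type cardiomyocyte replicate 2 (3.61, adjusted p 0.0157). Its non-myocyte level was not beyond carry-over.

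Some serine and one-carbon enzymes were also called higher on the cardiomyocyte side. Of 15 genes of serine, folate and proline synthesis, 4 were called higher and 0 lower, against 6.10% and 3.26% of all genes (median 0.71). The 7 that rose in cardiomyocytes compare with 1 in non-myocytes. Phgdh (chr3:98313171-98339969), which makes the first committed step from glycolysis to serine, was at 0.991, 0.845 and 0.399 CPM in Wild type and 8.41, 7.94 and 6.795 CPM in PLNR9C cardiomyocytes. Its non-myocyte levels of 14.4, 20.7 and 10.7 CPM in Wild type and 7.97, 12.4 and 15.4 CPM in PLNR9C overlapped. PLNR9C cardiomyocytes thus stayed on average below non-myocytes of either genotype. TMM factors raised cardiomyocyte levels and lowered non-myocyte levels, so the size of that gap depends on the scaling. The difference was 3.70 ± 0.50 (adjusted p 0.00101). Mthfd2 (chr6:83305704-83317604), a mitochondrial folate enzyme, went from 4.09, 2.41 and 1.59 CPM to 46.8, 37.8 and 37.5 CPM in cardiomyocytes. In non-myocytes it held 10.8, 6.57 and 3.82 CPM in Wild type and 7.84, 7.29 and 9.63 CPM in PLNR9C, which overlapped. Its difference was 3.67 ± 0.49 (adjusted p 0.00111), and the record DQ545191 overlaps it on the same strand. Psat1, the next enzyme after Phgdh, differed by 2.30 ± 0.44 (adjusted p 0.00659). Aldh18a1, which starts proline synthesis, differed by 1.21 ± 0.28 (adjusted p 0.01701), a call lost in 2 of 23 alternatives (adjusted p up to 0.0563). Shmt2, the mitochondrial serine hydroxymethyltransferase, had a difference of 0.05 ± 0.14 (adjusted p 0.871).

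**Figure D2:**
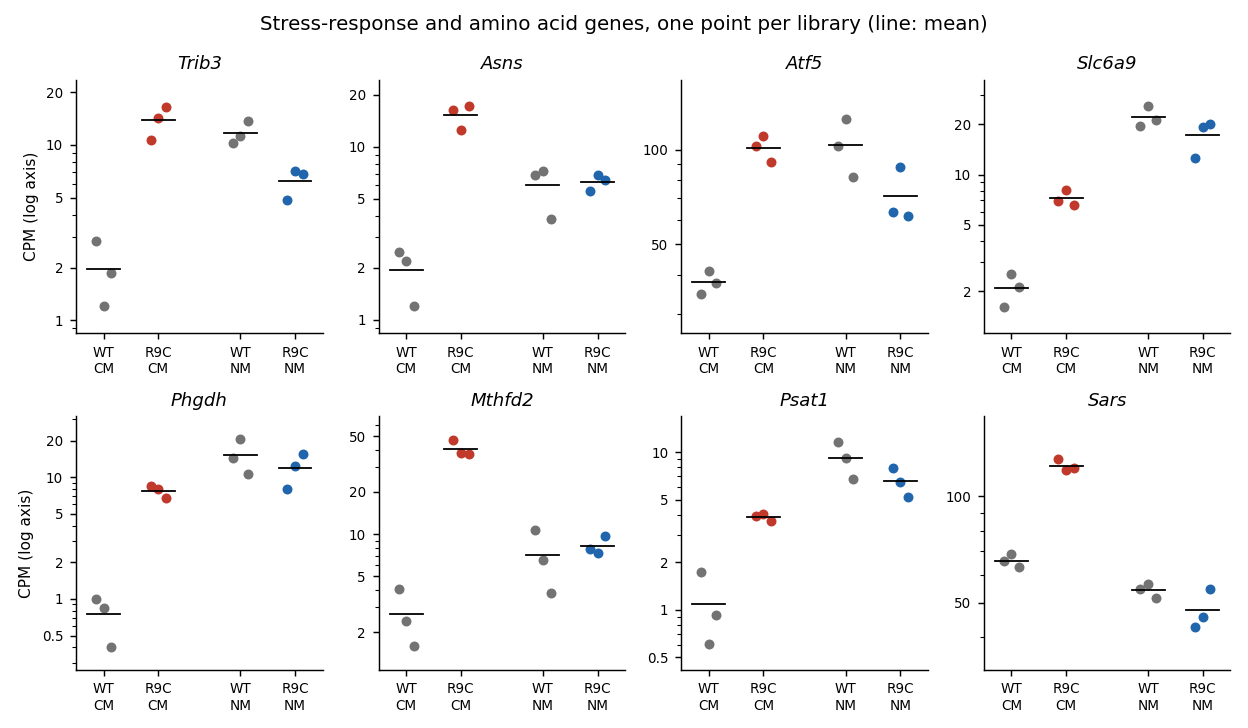
Level in TMM-scaled CPM (log axis) of 8 genes of amino acid synthesis, import and charging, 1 point per library and a line at the mean, in Wild type (WT) and PLNR9C (R9C) cardiomyocytes (CM) and non-myocytes (NM). In each panel the PLNR9C cardiomyocyte points lie above the Wild type ones, while the non-myocyte groups overlap except for Trib3.

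Aminoacyl tRNA synthetases, which load amino acids onto tRNAs, showed smaller differences. Of 16 members, 5 were called higher and 0 lower, against 6.10% and 3.26% of all genes (median 0.31). The 11 that rose in cardiomyocytes compare with 1 in non-myocytes, against 16.7% and 8.00% of all genes. Sars, the serine enzyme, held 65.5, 68.7 and 62.97 CPM in Wild type and 127, 119 and 120.3 CPM in PLNR9C cardiomyocytes, which did not overlap. It held 54.7, 56.4 and 51.7 CPM and 42.7, 45.5 and 54.8 CPM in non-myocytes, which did. Its difference was 1.08 ± 0.14 (adjusted p 0.000717). The calls of Gars (0.63 ± 0.16), Yars (0.73 ± 0.19) and Cars (0.81 ± 0.22) were lost in 8 of 23, 9 of 23 and 11 of 23 alternatives. The list count ran from 1 to 7 when single libraries were left out and was 1 or 2 without any 1 library other than PLNR9C cardiomyocyte replicate 1, PLNR9C non-myocyte replicate 3 and Wild type non-myocyte replicate 3.

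Endoplasmic reticulum genes held the largest named difference. Derl3 (chr10:75893398-75895941), a derlin that helps send misfolded proteins out of the endoplasmic reticulum, was at 0.248, 0.483 and 0.266 CPM in Wild type cardiomyocytes and 25.1, 13.6 and 13.95 CPM in PLNR9C cardiomyocytes. Its non-myocyte levels of 0.898, 3.49 and 1.01 CPM and 1.07, 3.33 and 1.46 CPM overlapped. The difference was 5.55 ± 0.95 (adjusted p 0.00469). Of 21 unfolded protein response genes, 5 were called higher and 1 lower, against 6.10% and 3.26% of all genes (median 0.58). In cardiomyocytes 13 rose and 2 fell, with 0 calls in non-myocytes. Sdf2l1, a chaperone partner, differed by 3.25 ± 0.82 and the co-chaperone gene Dnajb11 by 0.77 ± 0.21, calls lost in 11 of 23 and 8 of 23 alternatives. The 1 lower gene was Ern1, which encodes the sensor IRE1. It differed by -0.85 ± 0.17 (adjusted p 0.00989), from 25.4, 32.8 and 23.3 CPM to 20.7, 19.1 and 18.6 CPM in cardiomyocytes and from 28.9, 26.9 and 30.2 CPM to 37.6, 37.2 and 35.9 CPM in non-myocytes. Hspa5, the main chaperone of the compartment, had a difference of 0.40 ± 0.46 (adjusted p 0.657). The list count was 11 without Wild type non-myocyte replicate 3 and 2 or 3 without any 1 other library except PLNR9C cardiomyocyte replicate 2 and PLNR9C non-myocyte replicate 2.

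Part of the cardiomyocyte stress genes had a called difference. Of 22 tested stress and fetal genes, 15 rose and 1 fell in cardiomyocytes, 7 rose and 1 fell in non-myocytes, and 4 were called higher for the difference, against 6.10% of all genes (median 0.87). Non-myocyte levels of 12 of the 22 were not beyond carry-over. Pairing by pool brought that to 14. Nppa (chr4:148000746-148002067), the atrial natriuretic peptide gene, stood at 71.00, 167 and 122 CPM in Wild type and 9256, 6692 and 12271 CPM in PLNR9C cardiomyocytes. In non-myocytes it was at 9.33, 29.96 and 18.8 CPM and 197, 146 and 244 CPM. Genotypes did not overlap in either fraction, and the difference was 2.96 ± 0.59 (adjusted p 0.0123). Its non-myocyte level was not beyond carry-over, so RNA of cardiomyocytes and of non-myocytes cannot be told apart there. Uchl1, a deubiquitinase, had 4.46, 4.59 and 3.72 CPM in Wild type and 37.7, 31.4 and 64.7 CPM in PLNR9C cardiomyocytes. Its non-myocyte levels of 5.32, 5.23 and 8.45 and 6.16, 7.02 and 11.1 CPM overlapped. It differed by 3.03 ± 0.45 (adjusted p 0.00197). Fhl1, a LIM protein of the sarcomere, rose to 1233, 864 and 2554 CPM from 326, 341 and 354 CPM and differed by 2.13 ± 0.42 (adjusted p 0.0105). The call of the small heat shock gene Hspb1 (1.80 ± 0.48) was lost in 11 of 23 alternatives.

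Several other large differences belonged to genes called in cardiomyocytes. Ncam1 (chr9:49502146-49799069), a neural cell adhesion molecule, was at 2.73, 3.26 and 2.92 CPM in Wild type and 103, 53.6 and 110.2 CPM in PLNR9C cardiomyocytes. Non-myocytes held 13.8, 13.9 and 13.01 CPM and 14.8, 12.7 and 13.9 CPM, which overlapped. PLNR9C cardiomyocytes held more Ncam1 than any other library of the 12, and the difference was 4.87 ± 0.34 (adjusted p 1.16e-05). The record Gm11149 overlaps it on the other strand. Adamts20 (chr15:94270163-94404350), a secreted metalloprotease, rose to 23.2, 20.4 and 40.9 CPM from 0.372, 1.21 and 0.797 CPM in cardiomyocytes and differed by 4.58 ± 0.56 (adjusted p 0.000505). Plcxd2 (chr16:45959261-46010413), named for its phospholipase C domain, differed by 4.04 ± 0.69 (adjusted p 0.00369). Its cardiomyocyte levels were 0.743, 1.09 and 0.266 CPM in Wild type and 11.1, 8.04 and 24.3 CPM in PLNR9C. Tgfb2 (chr1:186623186-186705992), a TGF-beta ligand, stood at 13.6, 17.9 and 14.2 CPM in Wild type and 132, 131 and 274 CPM in PLNR9C cardiomyocytes. It was at 20.4, 22.3 and 20.99 CPM and 24.5, 23.7 and 26.8 CPM in non-myocytes. The genotypes were separate in both fractions, yet only the cardiomyocyte effect was called (3.55 ± 0.27 against 0.24 ± 0.25), and the difference was 3.31 ± 0.36 (adjusted p 0.000473). Tgfb3, another ligand, differed by 1.00 ± 0.23 (adjusted p 0.0152) and the matrix protein gene Tgfbi by 1.01 ± 0.19 (adjusted p 0.00607). Tgfbi was not beyond carry-over in cardiomyocytes and lost its call in the fit of 24 libraries (adjusted p 0.206). In all, 3 of 27 TGF-beta and CCN genes were called higher, against 6.10% of all genes. The count was 6 with fractions paired by pool. Krt18, a keratin on the epicardial list, was at 0.867, 1.93 and 0.664 CPM in Wild type and 9.83, 7.34 and 10.9 CPM in PLNR9C cardiomyocytes, with a difference of 3.27 ± 0.46 (adjusted p 0.00121).

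A set of fatty acid oxidation genes had a more negative effect in cardiomyocytes than in non-myocytes. Of 27 tested genes of fatty acid uptake and oxidation, the heart's main fuel path, 0 were called higher and 11 lower for the difference (median -0.41). In cardiomyocytes 25 fell and 0 rose (median -0.98), and in non-myocytes 20 fell and 2 rose (median -0.51). Over all genes 3.26% had a lower difference, 14.4% fell in cardiomyocytes and 8.58% fell in non-myocytes. Non-myocyte levels of 8 of the 27 were not beyond carry-over. Cardiomyocyte defining markers moved with the non-myocyte fall: 15 of 20 fell in non-myocytes (median -0.78), and their summed level there was 2843 to 4448 CPM in Wild type and 1812 to 2405 CPM in PLNR9C. Their part in the result was not tested. Slc27a1 (chr8:71568927-71586708), a fatty acid transport protein, was at 336, 298 and 379 CPM in Wild type and 177, 153 and 161 CPM in PLNR9C cardiomyocytes. In non-myocytes the order was reversed, with 17.96, 24.8 and 21.9 CPM in Wild type and 28.4, 28.7 and 32.2 CPM in PLNR9C. Neither pair of groups overlapped, and the difference was -1.51 ± 0.18 (adjusted p 0.000471). Decr1, a dienoyl-CoA reductase, went from 491, 509.7 and 509 CPM to 177, 214 and 188 CPM in cardiomyocytes. It went from 26.8, 34.2 and 33.6 CPM to 23.1, 25.6 and 22.8 CPM in non-myocytes. Both falls were called, and they differed by -0.98 ± 0.15 (adjusted p 0.002102). Slc25a20, the carnitine and acylcarnitine carrier, differed by -1.02 ± 0.17 (adjusted p 0.00264) and the enoyl-CoA isomerase Eci2 by -0.88 ± 0.17 (adjusted p 0.00587), each with a called fall in cardiomyocytes and none in non-myocytes. The muscle carnitine palmitoyltransferase Cpt1b fell in both fractions, with a difference of -0.03 ± 0.28 (adjusted p 0.963).

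**Figure D3:**
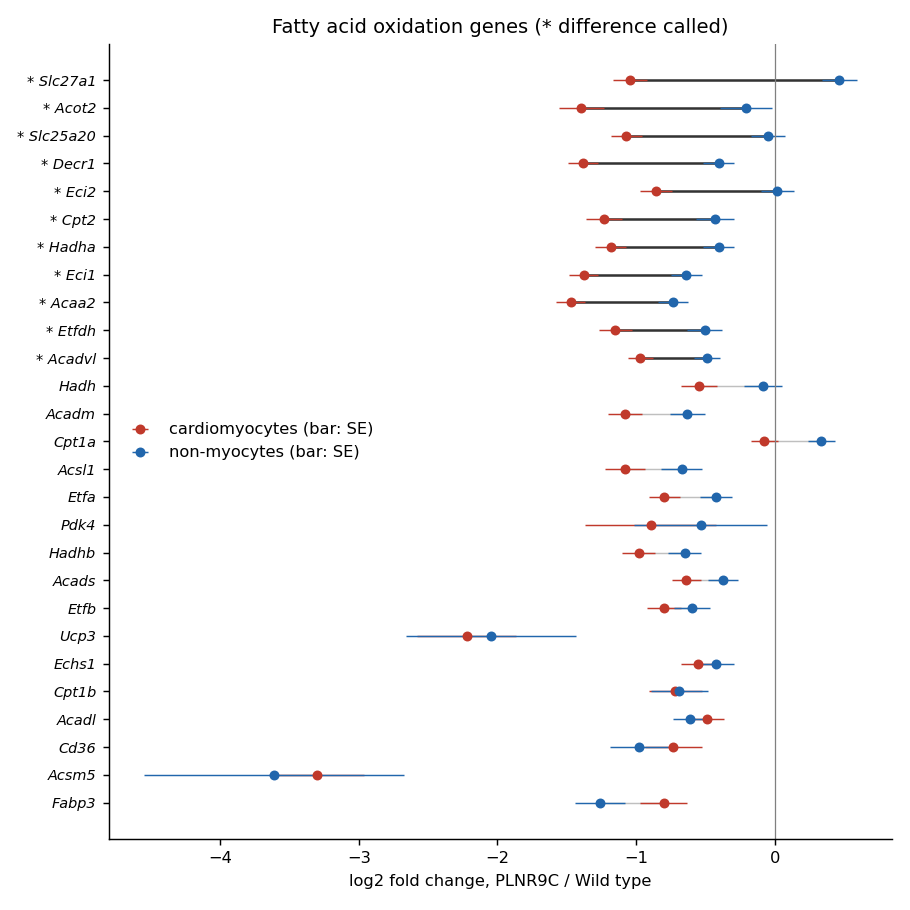
Log2 genotype effect (PLNR9C over Wild type, bar: SE) of 27 fatty acid oxidation genes in cardiomyocytes (red) and non-myocytes (blue), sorted by their difference, with a star where the difference was called. The 11 starred genes have the cardiomyocyte point to the left, from Slc27a1 at a difference of -1.51 to Acadvl at -0.48, while Cpt1b, Acadl, Cd36, Acsm5 and Fabp3 have both points close together or in the other order.

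Oxidative phosphorylation and citric acid cycle genes had 1 called difference between them. Of 62 oxidative phosphorylation genes, 0 were called for the difference by edgeR's quasi-likelihood test. In cardiomyocytes 46 fell and in non-myocytes 29 (medians -0.37 and -0.34), against 14.4% and 8.58% of all genes. Pairing by pool called 2. Of 19 citric acid cycle genes, 19 fell in cardiomyocytes and 7 in non-myocytes, and only Dld, a shared dehydrogenase subunit, was called lower (-0.48 ± 0.13), a call lost in 11 of 23 alternatives. Pairing by pool called 2 of that list. Among glycolysis genes, Hk1 (0.73 ± 0.13, adjusted p 0.00353) and Pfkp (1.44 ± 0.26, adjusted p 0.00472) were called higher. Hk2 (-0.86 ± 0.22, adjusted p 0.0284, lost in 5 of 23 alternatives) and Pfkfb1 were called lower. In all, 3 of 21 were called higher and 2 lower, against 6.10% and 3.26% of all genes. That count was 9 with fractions paired by pool and 3 without PLNR9C non-myocyte replicate 3, Wild type cardiomyocyte replicate 2 or Wild type cardiomyocyte replicate 3. Pfkfb1 (chrX:150589921-150643860), an enzyme that sets the level of a regulator of glycolysis, was at 20.1, 18.6 and 46.1 CPM in Wild type and 2.01, 3.32 and 2.18 CPM in PLNR9C cardiomyocytes. At 1.17, 1.54 and 1.07 and 1.54, 1.18 and 1.53 CPM its non-myocyte groups overlapped. Its difference was -3.63 ± 0.57 (adjusted p 0.00228). Scd4 (chr19:44333326-44346743), a stearoyl-CoA desaturase, fell from 39.9, 24.3 and 15.1 CPM to 0.474, 0.804 and 0.485 CPM in cardiomyocytes. It was at 1.45, 1.27 and 1.61 CPM and 0.268, 0.695 and 0.656 CPM in non-myocytes, and genotypes were separate in both. The difference was -4.03 ± 0.73 (adjusted p 0.005103), with an adjusted p of 0.0759 in voom. Of 15 mitochondrial regulators, Tfam (-0.56 ± 0.16) and Opa1 (-0.43 ± 0.12) were called lower, and these calls were lost in 12 of 23 and 11 of 23 alternatives.

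Ion channel genes of the cardiomyocyte were among the lower genes. Kcnv2 (chr19:27322619-27337179), a modifying subunit of voltage-gated potassium channels, was at 56.1, 51.8 and 44.1 CPM in Wild type and 4.15, 9.85 and 5.096 CPM in PLNR9C cardiomyocytes. Non-myocyte levels of 1.04, 1.41 and 0.603 CPM and 0.871, 0.834 and 1.46 CPM overlapped. It differed by -3.02 ± 0.53 (adjusted p 0.00436). Cacna1g, a T-type calcium channel, went from 76.3, 57.6 and 59.8 CPM to 10.7, 16.4 and 9.34 CPM in cardiomyocytes and differed by -2.33 ± 0.27 (adjusted p 0.000471). The chloride channel gene Clcn1 was called lower at -3.76 ± 0.91, a call lost in 2 of 22 alternatives. In all, 1 of 24 channel genes was called higher and 3 lower, against 6.10% and 3.26% of all genes. The 16 that fell in cardiomyocytes compare with 6 in non-myocytes (medians -0.82 and -0.72), against 14.4% and 8.58% of all genes. Non-myocyte levels of 11 of the 24 were not beyond carry-over.

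Among calcium handling genes, 3 had a called difference, and each was under 1 log2 unit. Pln, which encodes phospholamban, fell in both fractions. It held 4798, 4652 and 4583 CPM in Wild type and 2794, 2708 and 2256 CPM in PLNR9C cardiomyocytes, and 119, 149 and 111 CPM and 56.3, 77.7 and 50.1 CPM in non-myocytes. The genotypes were separate in each fraction, and the effects of -0.85 ± 0.16 and -1.04 ± 0.17 did not differ past the threshold (0.19 ± 0.23, adjusted p 0.6802). Its non-myocyte level was not beyond carry-over, and total reads of Pln do not tell the R9C form from the normal one. The pump gene Atp2a2 fell by 1.00 and 0.73 on the log2 scale in the 2 fractions, with a difference of -0.27 ± 0.22 (adjusted p 0.504). Of the 20 genes, 8 of which were not beyond carry-over in non-myocytes, the 3 were called higher, among them S100a1 (0.60 ± 0.13) and Casq2 (0.76 ± 0.17), whose calls were lost in 1 of 23 and 2 of 21 alternatives. Casq2, the calcium store protein of the sarcoplasmic reticulum, was at 931, 911 and 818 CPM and 850.5, 973 and 1047 CPM in cardiomyocytes, which overlapped, and at 37.9, 39.7 and 35.3 CPM and 20.4, 27.5 and 24.2 CPM in non-myocytes, which did not. Its non-myocyte level was not beyond carry-over. The count was 1 without Wild type cardiomyocyte replicate 3, 1 in the fit of 24 libraries, 5 with DESeq2 and 6 with fractions paired by pool.

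Opposite called effects in the 2 fractions were found in 113 genes (7.76% of the 1456): 72 rose in cardiomyocytes and fell in non-myocytes, and 41 did the reverse. With RLE size factors the split was 53 and 55, with DESeq2 69 and 66, with TMM within each fraction 59 and 51, and in the fit of 24 libraries 43 and 53. The count was 55 without PLNR9C non-myocyte replicate 1, 75 without replicate 3 of that group, and 69 and 67 without Wild type non-myocyte replicates 2 and 3. Levels were beyond carry-over in both fractions for 110 of the 113. The share came from endothelial, fibroblast and macrophage markers, so it does not measure mural cell RNA for genes such as Acta2 and Cspg4. Endothelial markers alone had a share of 23.1% in Wild type and 26.3% in PLNR9C cardiomyocytes, so carried endothelial RNA can pass the rule. The 8 genes with the smallest p are described here.

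Ache (chr5:137287766-137294463), acetylcholinesterase, which breaks down acetylcholine, had the smallest p. It was at 3.59, 2.29 and 3.99 CPM in Wild type and 32.1, 28.6 and 32.9 CPM in PLNR9C cardiomyocytes. In non-myocytes it was at 15.3, 14.7 and 17.3 CPM and 6.96, 8.82 and 7.15 CPM. The fraction with more Ache was thus the non-myocytes in Wild type and the cardiomyocytes in PLNR9C, and the difference was 4.29 ± 0.25 (adjusted p 1.66e-06). Wfikkn2 (chr11:94235952-94242579), a secreted protein that binds myostatin, moved the other way. It was at 15.1, 13.2 and 13.7 CPM in Wild type and 9.47, 9.45 and 9.46 CPM in PLNR9C cardiomyocytes. In non-myocytes it was at 2.35, 2.08 and 1.74 CPM and 15.00, 10.98 and 13.1 CPM. No group overlapped its counterpart, and the difference was -3.22 ± 0.23 (adjusted p 1.16e-05). Acta2 (chr19:34241091-34255336), smooth muscle actin, stood at 149.8, 151 and 144 CPM in Wild type and 459.7, 516 and 646 CPM in PLNR9C cardiomyocytes. Its non-myocyte levels were 154, 225 and 199 CPM and 80.2, 109.8 and 111 CPM. Again each pair was separate, with a difference of 2.81 ± 0.23 (adjusted p 4.50e-05). The record AK080187 lies on the same strand within its span and is itself among the 113.

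Fdft1 (chr14:63145150-63179578), squalene synthase of the cholesterol path, fell from 77.7, 72.2 and 77.1 CPM to 36.1, 39.7 and 38.2 CPM in cardiomyocytes. It rose from 24.8, 23.9 and 27.3 CPM to 37.3, 35.8 and 40.7 CPM in non-myocytes. Its difference was -1.57 ± 0.13 (adjusted p 4.40e-05), and Ctsb overlaps it on the other strand. Slc1a1, a transporter of glutamate and cysteine, was at 3.97, 3.86 and 5.18 CPM in Wild type and 17.5, 18.3 and 29.4 CPM in PLNR9C cardiomyocytes. In non-myocytes it was at 9.88, 10.9 and 10.5 CPM and 5.22, 6.95 and 5.25 CPM, and the difference was 3.17 ± 0.31 (adjusted p 0.000141). The small GTPase Rras (1.73 ± 0.15, adjusted p 6.41e-05), the G protein subunit Gnao1 (1.82 ± 0.17, adjusted p 6.89e-05) and the reductase Cyb5r1 (1.43 ± 0.13, adjusted p 7.53e-05) rose in cardiomyocytes and fell in non-myocytes, with no overlap of genotypes in either fraction. Records overlap Gnao1 and Slc1a1 on the other strand.

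**Figure D4:**
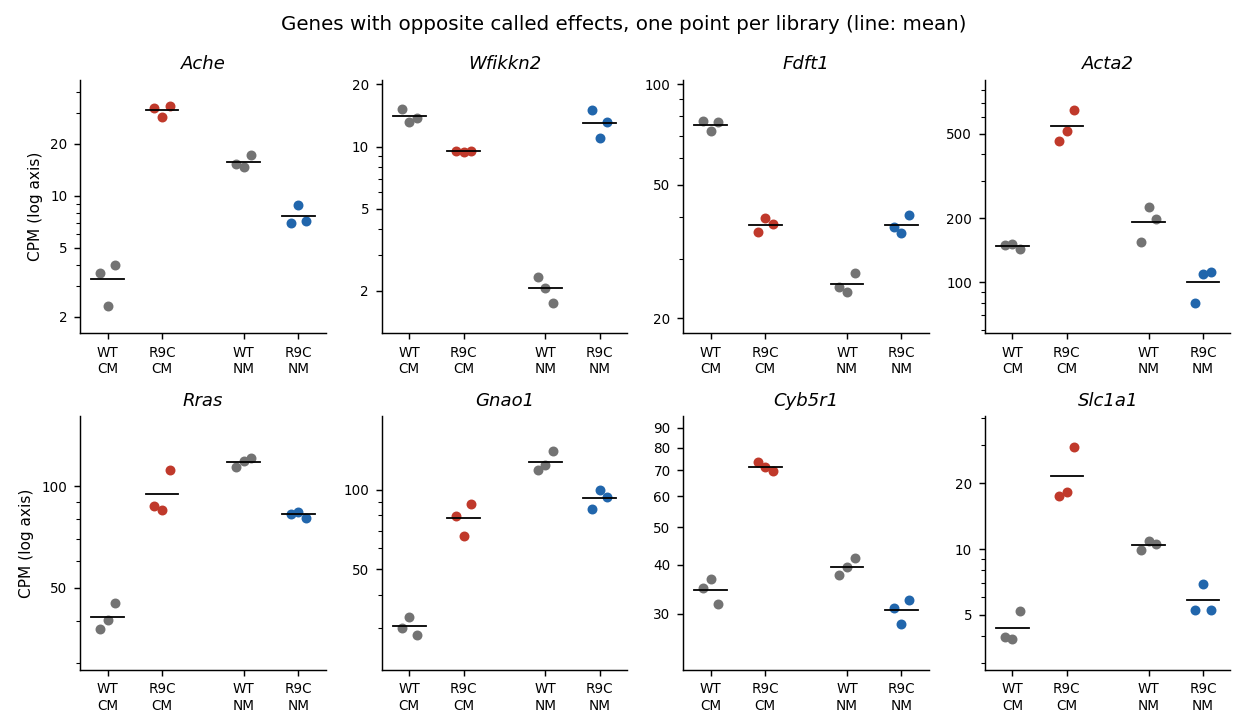
Level in TMM-scaled CPM (log axis) of the 8 genes with opposite called effects and the smallest p, 1 point per library and a line at the mean, in Wild type (WT) and PLNR9C (R9C) cardiomyocytes (CM) and non-myocytes (NM). In the panels of Ache, Acta2, Rras, Gnao1, Cyb5r1 and Slc1a1 the step is up on the left and down on the right, and in those of Wfikkn2 and Fdft1 it is down and then up.

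Another set of genes with a called difference changed in non-myocytes. Bdnf (chr2:109674700-109727043), a neurotrophin, was at 1.93, 2.48 and 2.01 CPM in Wild type and 34.96, 12.6 and 23.6 CPM in PLNR9C non-myocytes. Its cardiomyocyte levels of 8.92, 14.2 and 13.3 CPM and 13.5, 10.5 and 26.3 CPM overlapped. The difference was -3.01 ± 0.59 (adjusted p 0.0103). Adamts3 (chr5:89673841-89883334), a procollagen protease, fell from 13.5, 12.8 and 18.9 CPM to 4.62, 5.03 and 3.76 CPM in cardiomyocytes and rose from 3.45, 4.56 and 3.15 CPM to 7.23, 6.88 and 8.46 CPM in non-myocytes. It differed by -2.75 ± 0.29 (adjusted p 0.000262). Olfml2b (chr1:170644532-170682789), a secreted olfactomedin-like protein, did the same, from 76.2, 60.1 and 67.2 CPM to 28.9, 23.7 and 13.6 CPM in cardiomyocytes. In non-myocytes it went from 26.05, 25.1 and 21.5 CPM to 55.2, 46.96 and 57.5 CPM, and the difference was -2.75 ± 0.29 (adjusted p 0.0003099). Itgad, an integrin subunit of leukocytes, rose in non-myocytes (1.89 ± 0.42) with no call in cardiomyocytes (-0.60 ± 0.28), and it differed by -2.49 ± 0.50 (adjusted p 0.00873). Its non-myocyte levels were low, at 0.345, 0.804 and 0.268 CPM in Wild type and 2.08, 2.36 and 0.875 CPM in PLNR9C. Cardiomyocytes held more, at 12.3, 10.3 and 11.4 CPM and 6.51, 7.94 and 7.89 CPM. Cox6a2, a cytochrome oxidase subunit gene of muscle, overlaps Itgad on the other strand, and its part in these levels was not tested. Jund, an AP-1 subunit, fell in non-myocytes (-0.43 ± 0.09) with no call in cardiomyocytes (0.06 ± 0.09), a difference of 0.49 ± 0.12 (adjusted p 0.0233) that was lost in 6 of 23 alternatives.

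Many matrix and macrophage genes rose in each fraction: 37 of 42 matrix genes in cardiomyocytes and 30 in non-myocytes, and 14 of 20 macrophage markers in each. Fibroblast markers were called higher for 10 of 14 (median 1.13) and macrophage markers for 8 of 20 (median 1.13). Extracellular matrix genes were called higher for 8 of 42, with 1 lower (median 0.70). Over all genes 6.10% were called higher and 3.26% lower. In cardiomyocyte libraries summed fibroblast markers were at 691 to 840.0 CPM in Wild type and 1827 to 2365 CPM in PLNR9C, and summed macrophage markers at 80.8 to 105 CPM and 412 to 517 CPM. Of the matrix genes, 38 of 42 were not beyond carry-over in cardiomyocytes. The carry-over share was itself taken from fibroblast, macrophage and endothelial markers, so it cannot be read for those lists. The part of RNA from non-myocytes in these differences was not tested. In the fit of 24 libraries 3, 2 and 1 members were called, and pairing by pool called 11, 12 and 24. Without Wild type cardiomyocyte replicate 1 the counts were 4, 5 and 5, and without replicate 3 of that group 5, 5 and 2. The fibroblast count was 6 without PLNR9C non-myocyte replicate 2 or Wild type non-myocyte replicate 2. The matrix count was 16 without PLNR9C cardiomyocyte replicate 2, 5 without PLNR9C non-myocyte replicate 3, 4 without Wild type non-myocyte replicate 1 or 2, and 3 without PLNR9C cardiomyocyte replicate 1, PLNR9C cardiomyocyte replicate 3 or PLNR9C non-myocyte replicate 2.

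Lyz2, a lysozyme of macrophages, shows the pattern. It was at 17.7, 22.7 and 17.7 CPM in Wild type and 215, 157 and 175 CPM in PLNR9C cardiomyocytes, and at 465, 506 and 465 CPM and 1862, 1373 and 1523 CPM in non-myocytes. Both rises were called, and the difference was 1.51 ± 0.21 (adjusted p 0.00119). Gsn, gelsolin, was at 354, 432 and 372 CPM and 836, 773 and 799.5 CPM in cardiomyocytes. In non-myocytes it fell from 9053, 9393 and 10770 CPM to 6828, 7931 and 7047 CPM, and the difference was 1.48 ± 0.17 (adjusted p 0.000471). Mmp2, a matrix metalloprotease, differed by 1.29 ± 0.19 (adjusted p 0.00141) and Csf1r, the receptor that marks macrophages, by 1.17 ± 0.14 (adjusted p 0.000505). The collagen gene Col1a1 differed by 1.19 ± 0.33 (adjusted p 0.0383), lost in 12 of 21 alternatives. Col3a1 missed the threshold at 1.05 ± 0.48 (adjusted p 0.204) and passed with fractions paired by pool (1.05, adjusted p 0.000505). Ogn, a small proteoglycan, was the 1 matrix gene called lower, at -0.96 ± 0.20 (adjusted p 0.0114). It fell from 65.5, 56.5 and 49.8 CPM to 37.9, 39.9 and 39.9 CPM in cardiomyocytes, where it was beyond carry-over. Ckap4, a membrane protein of the endoplasmic reticulum on the activated fibroblast list, differed by 1.63 ± 0.27 (adjusted p 0.00305) and was beyond carry-over in both fractions.

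Of 14 smooth muscle and pericyte markers, 11 fell in non-myocytes and 0 rose (median -0.96), while 3 rose and 4 fell in cardiomyocytes (median 0.02). Over all genes 8.58% fell in non-myocytes, and 16.7% rose and 14.4% fell in cardiomyocytes. Besides Acta2, 2 of the 14 markers were called higher for the difference, against 6.10% of all genes, and pairing by pool called 7 in all. Cspg4, the NG2 proteoglycan of pericytes, was at 33.1, 41.4 and 58.1 CPM in Wild type and 115, 99.4 and 203 CPM in PLNR9C cardiomyocytes. In non-myocytes it was at 108, 133 and 148 CPM and 55.05, 78.6 and 58.6 CPM, and the difference was 2.67 ± 0.40 (adjusted p 0.00241). Cnn1, calponin, differed by 2.27 ± 0.62, lost in 12 of 23 alternatives. Summed levels of the list in cardiomyocyte libraries were 4372 to 4673 CPM in Wild type and 6697 to 9999 CPM in PLNR9C. In non-myocytes they were 2848 to 3308 CPM and 1873 to 2187 CPM. TMM factors raised cardiomyocyte levels and lowered non-myocyte levels, so these sums do not settle which Wild type fraction held more. The list includes Des, which cardiomyocytes also express. The part of RNA from mural cells in these levels was not tested. The pericyte genes Rgs5 and Abcc9 fell in both fractions, with differences of 0.20 ± 0.15 (adjusted p 0.466) and 0.24 ± 0.16 (adjusted p 0.402). Of 16 endothelial markers, 9 fell in cardiomyocytes and 11 in non-myocytes, with 0 called for the difference by edgeR's quasi-likelihood test and 3 with fractions paired by pool.

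**Figure D5:**
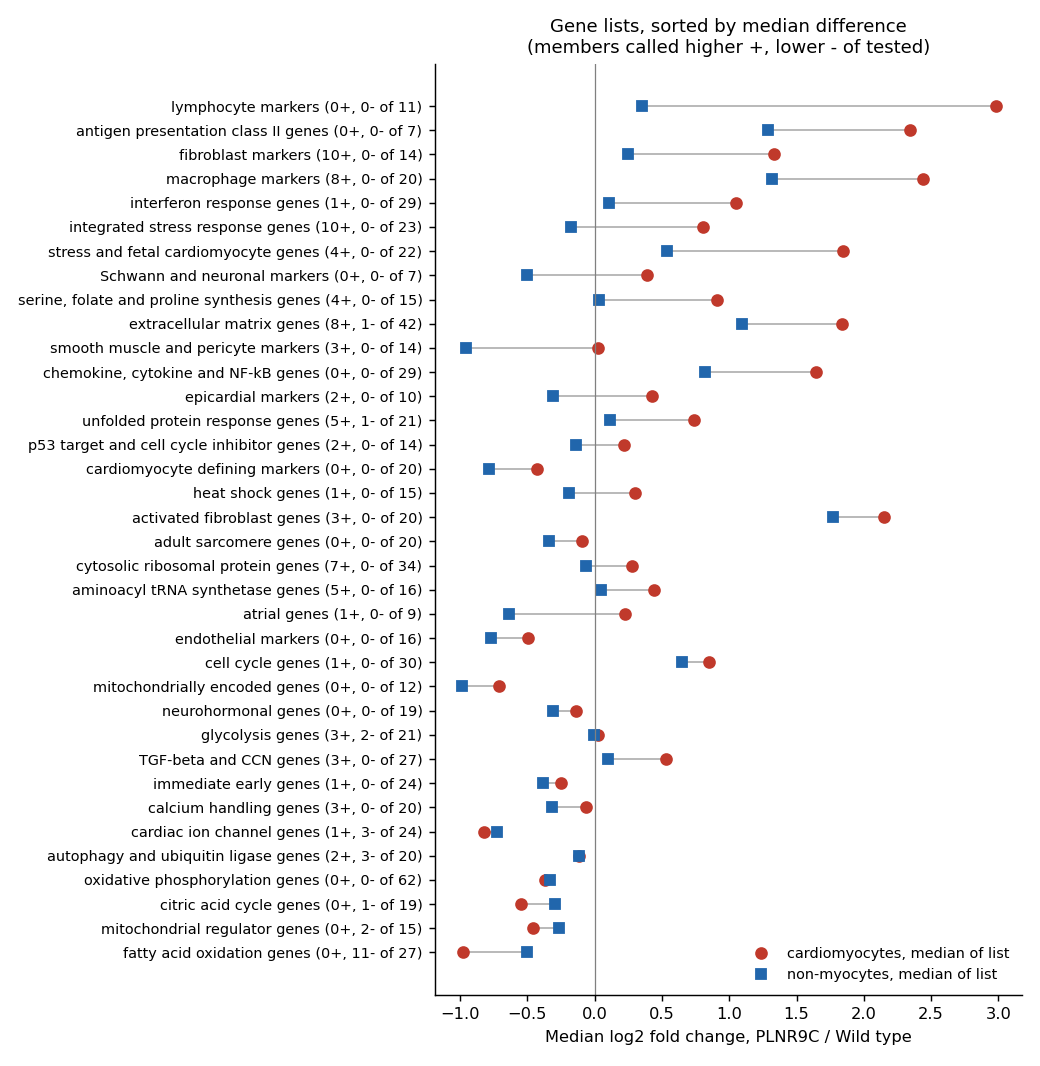
Median log2 genotype effect of 36 gene lists with at least 5 tested members in cardiomyocytes (red circles) and non-myocytes (blue squares), sorted by the median difference, with the members called higher (+) and lower (-) for the difference. The circle lies right of the square in most lists and left of it for the ion channel, fatty acid oxidation, oxidative phosphorylation, citric acid cycle and mitochondrial regulator lists, while both coincide for autophagy genes.

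Of 34 cytosolic ribosomal protein genes, 7 were called higher and 0 lower, against 6.10% and 3.26% of all genes (median 0.33). The smallest p was that of Rpl3, at 49.6, 47.9 and 41.5 CPM in Wild type and 114, 108 and 129.6 CPM in PLNR9C cardiomyocytes. Rpl3 non-myocyte levels of 111, 115 and 129 CPM and 119, 107 and 123 CPM overlapped, and the difference was 1.36 ± 0.15 (adjusted p 0.0003099), with small nucleolar RNA genes within its span. Its muscle paralog Rpl3l fell in both fractions, with a difference of 0.65 ± 0.26 (adjusted p 0.137). The ribosomal count was 3 without PLNR9C cardiomyocyte replicate 3 or Wild type cardiomyocyte replicate 3, 4 without PLNR9C non-myocyte replicate 2 or Wild type cardiomyocyte replicate 1, and 4 in the fit of 24 libraries. The p53 target Phlda3 differed by 1.89 ± 0.35 (adjusted p 0.005197) and Bax by 0.69 ± 0.19, lost in 10 of 23 alternatives, with 2 of 14 called higher and 7 with fractions paired by pool. Among 29 interferon response genes only Ifit2 was called (1.30 ± 0.23, adjusted p 0.00382), and 10 rose in cardiomyocytes against 1 in non-myocytes. Pairing by pool called 6. The cell cycle factor E2f1 differed by 1.68 ± 0.42, lost in 6 of 23 alternatives, as 1 of 30. Of 20 autophagy and ubiquitin ligase genes, the cargo receptor Sqstm1 (0.86 ± 0.20) and Becn1 (0.49 ± 0.14, lost in 11 of 23 alternatives) were called higher. In that list the transcription factor Foxo3 (-1.78 ± 0.37) and the cathepsin Ctsd (-0.68 ± 0.19, lost in 9 of 23 alternatives) were among 3 called lower. The sarcomere, chemokine, antigen presentation class II and mitochondrially encoded lists held 0 calls by edgeR's quasi-likelihood test, and 4, 10, 5 and 0 with fractions paired by pool.

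Several well-known disease genes had no called difference. Nppb, the B-type natriuretic peptide gene, was at 208, 296 and 83.04 CPM in Wild type and 689, 806 and 1505 CPM in PLNR9C cardiomyocytes, and at 2.76, 6.37 and 1.68 CPM and 13.7, 16.3 and 27.8 CPM in non-myocytes. Both rises were called (2.35 ± 0.55 and 2.41 ± 0.63), and the difference was -0.06 ± 0.77 (adjusted p 0.975). The myosin genes Myh7 (0.50 ± 0.38, adjusted p 0.465) and Myh6 (0.28 ± 0.26, adjusted p 0.571) and the skeletal actin gene Acta1 (0.90 ± 0.30, adjusted p 0.0815) did not pass. Acta1 passed with fractions paired by pool (0.85, adjusted p 0.00607), with the replicate number as a block (0.89, adjusted p 0.0440) and without Wild type non-myocyte replicate 1 (1.12, adjusted p 0.0206). Nppb, Myh7 and Acta1 were not beyond carry-over in non-myocytes. Postn, a matricellular protein of activated fibroblasts, rose by 2.99 ± 0.37 in cardiomyocytes and 3.22 ± 0.36 in non-myocytes, with a difference of -0.23 ± 0.48 (adjusted p 0.828). Its cardiomyocyte levels of 159.7, 70.9 and 156 CPM in PLNR9C were not beyond carry-over from non-myocytes at 1302, 637 and 1351 CPM. Timp1, a metalloprotease inhibitor, had effects of 4.17 ± 0.44 and 4.23 ± 0.28 and a difference of -0.06 (adjusted p 0.982). Ctgf, a CCN protein, was beyond carry-over in both fractions. It went from 375, 359 and 230.4 CPM to 819, 867 and 1666 CPM in cardiomyocytes and from 320.1, 255 and 297 CPM to 831, 528 and 1426 CPM in non-myocytes, with a difference of 0.12 ± 0.51 (adjusted p 0.921). A difference that misses the threshold does not show that 2 effects are equal.

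The same difference was tested in the 12 JQ1 libraries, which the vehicle comparison did not use and which come from treated animals. There 563 of 15118 genes were called (3.72%; 403 or 2.67% higher and 160 or 1.06% lower). Of 1441 vehicle calls tested, 354 were called in the same direction (24.6% of them, and 62.9% of the JQ1 calls) and 0 in the opposite direction, against 3.68% of all genes tested in both. Of the 113 genes with opposite effects, 57 were called in the same direction (50.4%). The JQ1 count was 2536 without PLNR9C cardiomyocyte replicate 1 and between 185 and 308 when any 1 of 9 other libraries was left out, PLNR9C cardiomyocyte replicate 2 and PLNR9C non-myocyte replicate 1 being the exceptions. It was 1539 with fractions paired by pool and 1314 with DESeq2. JQ1 differences were 2.87 ± 0.32 for Trib3 (adjusted p 0.000619), 2.50 ± 0.34 for Asns (adjusted p 0.00275), 3.67 ± 0.30 for Ncam1 (adjusted p 0.000116) and 2.78 ± 0.26 for Tgfb2 (adjusted p 0.000225). Gdf15, which had missed the threshold in vehicle libraries, differed by 4.54 ± 0.62 (adjusted p 0.00316). Of the integrated stress response list, 6 were called higher and 0 lower. Ache (2.71 ± 0.26, adjusted p 0.0002697) and Wfikkn2 (-2.74 ± 0.39, adjusted p 0.003403) had differences of the same sign as in vehicle libraries. The fatty acid oxidation list had 0 calls under JQ1, with -0.95 ± 0.28 for Slc27a1 (adjusted p 0.0712) and -0.05 ± 0.30 for Slc25a20 (adjusted p 0.929). Kcnv2 (-0.89 ± 0.78, adjusted p 0.508) and Pfkfb1 (-1.50 ± 0.77, adjusted p 0.247) did not pass either. Under JQ1 the cardiomyocyte effects of Slc25a20, Kcnv2 and Pfkfb1 were still -1.10, -3.67 and -3.53. Their non-myocyte effects were -1.05, -2.79 and -2.03, against -0.05, 0.04 and 0.16 in vehicle libraries. Mitochondrially encoded genes took 7.18 to 11.3% of reads in Wild type and 3.31 to 8.63% in PLNR9C non-myocytes under JQ1. The part of cardiomyocyte RNA in these non-myocyte effects was not tested. Whether a difference itself changed with JQ1 was not tested.

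Whole left ventricle gave another readout of the genes with a called difference. At 20 weeks, where 44.7% of genes were called between genotypes (23.3% rose and 21.4% fell), 729 of 947 higher genes rose (77.0%) and 25 fell, against 23.9% and 21.9% of all tested in both tables. Of 507 lower genes 380 fell (75.0%) and 23 rose. At 8 weeks, where 14.4% were called (7.86% rose and 6.50% fell), 337 of 937 higher genes rose (36.0%) and 179 of 507 lower genes fell (35.3%). Mthfd2 rose at 8 weeks by 3.35 ± 0.25 (adjusted p 8.26e-07), as were Derl3 by 5.24 ± 0.56 (adjusted p 0.0001796) and Asns by 2.23 ± 0.27 (adjusted p 5.62e-05). Ncam1 rose by 1.29 ± 0.18 at 8 weeks and 4.29 ± 0.17 at 20 weeks. Wfikkn2, which fell in cardiomyocytes and rose in non-myocytes, showed 0.01 ± 0.17 at 8 weeks (adjusted p 0.976) and -0.06 ± 0.16 at 20 weeks (adjusted p 0.794) in whole ventricle. Bdnf showed -0.29 ± 0.20 (adjusted p 0.393) and 0.49 ± 0.22 (adjusted p 0.0808). Among the 113 opposite genes, 53 rose and 33 fell at 20 weeks.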

How the data were processed

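Total RNA was isolated by TRIzol and made into Nextera libraries, per the labels' protocols. The builds GRCm38 and mm10 and the tool STAR 2.4.1b are listed, without roles, per the submitters' processing notes. For the counting tool, annotation and strand setting, no label or header gives an answer. The deposited table of the fractions gives, per the file headers, read counts per gene and RPKM values side by side. The authors' RPKM values were used only to check the counts: for each of 8250 genes with at least 50 reads in every fraction library, all libraries implied 1 gene length within 0.1%. Every test used the deposited counts of 31741 genes.

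The 12 vehicle libraries were fitted together in edgeR 4.0.16 (R 4.3.3; limma 3.58.1) with 1 coefficient per group, TMM library sizes and filterByExpr, which left 15567 genes. Effects were tested with the quasi-likelihood test and Benjamini-Hochberg adjustment over all genes tested, at 0.05, and an SE is the absolute log2 value over the root of the F statistic. JQ1 libraries and each ventricle set were fitted alone. The scripts were tested on simulated data. P-values rest on the spread between libraries within groups, pooled over the groups of a fit and drawn toward that of other genes. The 3 libraries of a group are described by the submitters as biological replicates. The unpaired fit treated the 12 vehicle libraries as independent.

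Libraries of the 2 fractions with the same genotype and number deviated together from their group means. Correlations were 0.197 to 0.419 over 11228 genes with a mean of at least 5 CPM, all above 0.1. Wild type and PLNR9C libraries of the same number also deviated together in non-myocytes (0.192 to 0.342), but not in cardiomyocytes (-0.0911 to 0.108). Pairing the fractions by genotype and number rests on these values, since the labels give only the numbers. Whether a number marks a shared pool or something else that its libraries share cannot be told apart. In the fit called pairing by pool, each genotype and number is a block. It is quoted where it changes a call or moves a count by over 1.5 times.

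The members, lists and tests were chosen with earlier results of these data known. Genes named are the 8 called genes with the largest positive and the 8 with the largest negative difference (at least 10 CPM in 1 group and 1 CPM in each fraction), the 8 opposite genes with the smallest p, up to 4 called members of each list and a fixed set of disease genes. Atf4, Ddit3, Hspa5, Shmt2, Cpt1b, Rgs5, Abcc9, Rpl3l, Slc7a11 and Nupr1 were named after their values were seen. A few genes that the rule selects are not reported here. Alternatives were DESeq2 1.42.0, limma voom, RLE size factors, TMM within each fraction, all 24 fraction libraries, other filters, replicate blocks and leaving out each library.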

Additional observations from a re-analysis of the deposited data

Results flagged for a closer look

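A genotype effect that differs between cardiomyocytes and non-myocytes by a test of the difference itself was found for 949 genes on the higher side and 507 on the lower side, and 113 genes had opposite called effects. Of the genes named in the report, those with the largest positive log2 differences were Derl3 (5.55), Ncam1 (4.87), Adamts20 (4.58), Ache (4.29), Plcxd2 (4.04), Trib3 (3.72), Phgdh (3.70) and Mthfd2 (3.67). The largest negative ones were Scd4 (-4.03), Pfkfb1 (-3.63), Wfikkn2 (-3.22), Kcnv2 (-3.02), Bdnf (-3.01), Adamts3 (-2.75), Olfml2b (-2.75) and Itgad (-2.49). Both rankings cover genes with at least 10 CPM in 1 group and at least 1 CPM in each fraction.

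Opposite called effects with the smallest p were seen, besides Ache and Wfikkn2, for Fdft1 (-1.57), Acta2 (2.81), Rras (1.73), Gnao1 (1.82), Cyb5r1 (1.43) and Slc1a1 (3.17). Within the autophagy and ubiquitin ligase list, the difference was -1.78 for Foxo3 and -0.68 for Ctsd, and 0.86 for Sqstm1 and 0.49 for Becn1.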

How the results depend on the processing

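Of 94 named genes past the threshold, 94 kept their direction and 58 stayed past it under every alternative that tested them. Only 78 of the 94 were tested in the fit of genes beyond carry-over in both fractions. Nppa, Lyz2, Csf1r and Gsn were left out there, so their calls were not put to that alternative. With the replicate block by pool, which pairs the fractions, 2234 genes were called for the difference and 1539 for that of the JQ1 libraries, where DESeq2 called 1314. That block gave Acta1, Gdf15 and Col3a1 a call and took none from the named genes. It gives no effect within 1 fraction, since each block lies within 1 genotype, and so no count of opposite genes. With the number as a replicate block over all groups, 1716 genes were called for the difference and 3057 in non-myocytes. Non-myocyte calls were 1388 among genes beyond carry-over in both fractions and 1395 with carry-over from plain CPM, an alternative chosen after seeing the data. Leaving out each library gave 877 to 1388 calls for the difference, 3704 to 4825 in cardiomyocytes, 1480 to 2819 in non-myocytes, 185 to 2536 in JQ1 libraries, 1267 to 2329 and 6085 to 7344 in 8-week and 20-week ventricle, and 55 to 112 opposite genes. At 8 weeks the count was 1267 without Wild type replicate 1 and 1387 without PLNR9C replicate 2. Differences near 0 changed sign when single libraries were left out: Nppb (-0.06) ran from -0.77 to 0.34, Postn (-0.23) from -0.50 to 0.0676, Timp1 (-0.06) from -0.29 to 0.28 and Ctgf (0.12) from -0.31 to 0.57, and Timp1 was at 0.0053 with the replicate number as a block. The cause of these changes was not tested. With 3 libraries per group, small differences in genes of low count could not be detected.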

Other observations

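Lysosomal genes included 11 with a lower effect in cardiomyocytes than in non-myocytes. The list of 38 genes was written after values had been seen, so its counts are a description only. In non-myocytes 26 rose and 0 fell (median log2 effect 0.58), and in cardiomyocytes 20 rose and 4 fell (median 0.40). Over all genes 8.00% rose in non-myocytes and 16.7% in cardiomyocytes. For the difference 11 of the 38 were called lower and 3 higher (median -0.18), against 3.26% and 6.10% of all genes. When single libraries were left out, 8 to 13 were called. Psap, the precursor of the saposins that help break down sphingolipids, fell in cardiomyocytes (-0.50 ± 0.10) and rose in non-myocytes (0.69 ± 0.10), a difference of -1.19 ± 0.14 (adjusted p 0.000471, edgeR's quasi-likelihood test). Mitf, a transcription factor of the same family as the lysosomal regulator TFEB, had the same pattern, with -0.75 ± 0.16 and 0.90 ± 0.16 and a difference of -1.65 ± 0.23 (adjusted p 0.00101). Npc1, which moves cholesterol out of lysosomes, fell in cardiomyocytes (-1.42 ± 0.14) and differed by -1.58 ± 0.20 (adjusted p 0.000599). Ctsz, a cathepsin, rose in both fractions and more in cardiomyocytes, a difference of 1.32 ± 0.17 (adjusted p 0.000661). In JQ1 libraries 6 members were called lower and 1 higher.

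The Y-linked demethylase gene Uty differed by -0.67 ± 0.15 (adjusted p 0.0125). It fell in cardiomyocytes (-0.73 ± 0.10), from 31.7, 33.3 and 36.5 CPM in Wild type to 19.4, 21.4 and 20.1 CPM in PLNR9C, and was not called in non-myocytes (-0.06 ± 0.10).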
